A study of Mus musculus with 6 samples.

Results

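Small nucleolar RNAs (snoRNAs) and small Cajal body RNAs (scaRNAs) were followed as 55 genes of the tibialis anterior (TA) muscle of the mouse. They are all genes of the count table that GENCODE classes as snoRNA or scaRNA and whose raw count, summed over 6 libraries, was at least 60. This kept 10 of 51 annotated scaRNA genes and 45 of 1507 annotated snoRNA genes, or 55 of 1558 in all, in a table of 55401 genes. They were chosen by their summed count and not by the groups, so the levels below are a description and carry no test.

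All 6 libraries came from C57BL/6 mice of genotype HSA-MCM-Bmal1-/- (iMSBmal1fl/fl), in which the clock factor Bmal1 was deleted with tamoxifen. The mice were 12 to 16 weeks old, received 2 mg of tamoxifen a day for 5 days, were injected with adeno-associated virus (AAV) into the TA 4 weeks later, and were sampled 4 weeks after that. The AAV-GFP group (n = 3) received a vector for green fluorescent protein and the AAV-RBM20 group (n = 3) a vector for the splicing factor RBM20. HSA-MCM is a tamoxifen-inducible Cre recombinase under a skeletal muscle actin promoter, so the deletion is aimed at muscle fibres and the other cells of the muscle keep Bmal1. Both groups carried the deletion, and no muscle with intact Bmal1 is compared here. By the study's methods more genome copies of the RBM20 vector than of the GFP vector were injected, so vector dose and transgene cannot be told apart.

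SnoRNAs guide the chemical modification of other RNAs by base pairing. C/D box snoRNAs direct methylation of the ribose through fibrillarin, H/ACA box snoRNAs direct pseudouridylation through dyskerin, and scaRNAs carry the same boxes but work in Cajal bodies on spliceosomal RNAs. In mammals most are cut out of the introns of host genes after splicing, so a read over a snoRNA gene can come from the mature RNA or from unspliced host RNA, and gene counts do not separate these sources.

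The sequences of the genes on which the results turn were read from the GENCODE M21 transcripts (GRCm38). Capitals mark the box letters found by a search of the annotated strand of each transcript. These were TGATGA starting within the first 26 bases (C box) with CTGA in the last 20 bases (D box), or ANANNA starting between 30 and 65 percent of the length (H box) with ACA followed by 2 to 4 bases at the 3′ end. The other strand was not searched, because boxes are read in the RNA. The scaRNA Gm22442 (chr11:69350518-69350661, minus strand, in an intron of Chd3) is shown first because it had the largest difference between the groups, and Gm24644 (chr2:104040669-104040807, plus strand, in an intron of Fbxo3) because it is its nearest relative among the 55 genes. They matched at 105 of 144 aligned positions (72.9%).
Gm22442: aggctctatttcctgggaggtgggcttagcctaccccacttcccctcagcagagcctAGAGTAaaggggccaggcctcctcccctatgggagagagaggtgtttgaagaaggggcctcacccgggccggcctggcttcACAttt
Gm24644: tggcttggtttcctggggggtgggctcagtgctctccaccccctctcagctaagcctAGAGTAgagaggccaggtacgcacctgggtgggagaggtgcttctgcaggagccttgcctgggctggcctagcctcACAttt
Gm25395 (chr1:87776938-87777209, plus strand) and Scarna6 (chr1:87784556-87784820, plus strand) are shown because both lie in introns of Atg16l1 and can be compared within 1 host.
Gm25395: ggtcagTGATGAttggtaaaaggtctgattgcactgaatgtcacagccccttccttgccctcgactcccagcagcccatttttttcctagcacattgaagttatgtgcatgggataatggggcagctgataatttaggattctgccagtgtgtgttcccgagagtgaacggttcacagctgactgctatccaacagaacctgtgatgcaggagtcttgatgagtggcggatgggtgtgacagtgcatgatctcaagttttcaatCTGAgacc
Scarna6: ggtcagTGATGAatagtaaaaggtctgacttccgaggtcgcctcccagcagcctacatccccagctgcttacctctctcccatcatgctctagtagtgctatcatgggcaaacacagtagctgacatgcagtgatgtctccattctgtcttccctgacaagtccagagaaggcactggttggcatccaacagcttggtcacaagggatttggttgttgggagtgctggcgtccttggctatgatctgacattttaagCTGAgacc
Gm24339 (chr9:15326464-15326539, minus strand) and Scarna9 (chr9:15326264-15326333, minus strand) share the host Cep295 in the same way.
Gm24339: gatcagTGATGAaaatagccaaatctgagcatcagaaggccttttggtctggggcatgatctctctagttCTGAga
Scarna9: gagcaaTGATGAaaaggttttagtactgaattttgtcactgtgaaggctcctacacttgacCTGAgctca
Snora73b (chr4:132352322-132352526, minus strand, in Rcc1) and its relative Gm26448 (chr9:120129351-120129553, plus strand, in Rpsa) are identical at 180 of 205 aligned positions (87.8%) and are shown because their levels lay on either side of that of the host.
Snora73b: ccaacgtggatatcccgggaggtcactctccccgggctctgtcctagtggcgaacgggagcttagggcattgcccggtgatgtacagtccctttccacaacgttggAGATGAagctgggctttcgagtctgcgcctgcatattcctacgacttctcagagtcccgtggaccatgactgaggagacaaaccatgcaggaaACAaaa
Gm26448: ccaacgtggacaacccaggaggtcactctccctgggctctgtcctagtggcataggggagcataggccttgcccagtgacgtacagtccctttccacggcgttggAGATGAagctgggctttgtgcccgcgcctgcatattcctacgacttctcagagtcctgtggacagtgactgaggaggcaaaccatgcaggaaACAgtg
Gm24620 (chr13:46767520-46767649, minus strand, in Kif13a), Gm25788 (chr4:123291344-123291474, plus strand) and Gm22154 (chr4:123293152-123293282, plus strand, both in Pabpc4) are shown as near copies of 94.7 to 97.7% identity. Their log2 fold changes were 1.37 ± 0.47, 0.17 ± 0.49 and -0.19 ± 0.38 (SE), and differences between the copies were not tested. Gm24620 passed the filter on low counts through the AAV-RBM20 libraries alone.
Gm24620: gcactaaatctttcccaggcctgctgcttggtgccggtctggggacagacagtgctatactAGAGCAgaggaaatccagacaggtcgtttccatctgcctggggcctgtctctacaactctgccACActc
Gm25788: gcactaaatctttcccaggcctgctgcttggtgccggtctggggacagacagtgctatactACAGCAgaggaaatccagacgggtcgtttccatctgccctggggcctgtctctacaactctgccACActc
Gm22154: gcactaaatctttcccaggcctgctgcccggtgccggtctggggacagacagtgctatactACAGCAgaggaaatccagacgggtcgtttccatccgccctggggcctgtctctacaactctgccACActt
Snord8 (chr14:52209785-52209894, minus strand, in Chd8) is shown as the C/D box gene with the smallest p-value between the groups (edgeR adjusted p 0.618). It passed the filter on low counts through the AAV-RBM20 libraries alone.
Snord8: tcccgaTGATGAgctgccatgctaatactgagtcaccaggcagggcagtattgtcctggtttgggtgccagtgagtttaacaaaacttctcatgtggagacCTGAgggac
Of the 55 genes, 10 held the C and D letters, 24 the H and ACA letters and 21 neither pair. The shares were 18.2% and 43.6%, beside 20.3% and 38.1% of all 1558 annotated genes, so the genes that were counted held these letters about as often as the rest.

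Few annotated snoRNA genes were counted at all. Of 1558 genes, 306 had at least 1 count. Length went with detection. Of 39 annotated genes of 200 bases or more, 9 (23.1%) reached a summed count of 60, beside 6 of 284 genes under 80 bases (2.11%). The 55 genes had a median length of 132 bases (range 67 to 414), the annotated genes 128, the 10 scaRNA genes of the set 215 and its 45 snoRNA genes 131. Overlap with an exon of another gene on the same strand also went with it, as 2 of 229 overlapping genes (0.873%) and 53 of 1329 others (3.99%) were in the set. The 2 are Scarna13, which overlaps Mir3069, and Gm23201, which overlaps an exon of Zfas1. Their counts, and those of Snora73b, Snord8 and Gm25437, which overlap a gene on the other strand, are uncertain because the strand setting of the counting is not given in the sources used here.

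**Figure D1:**
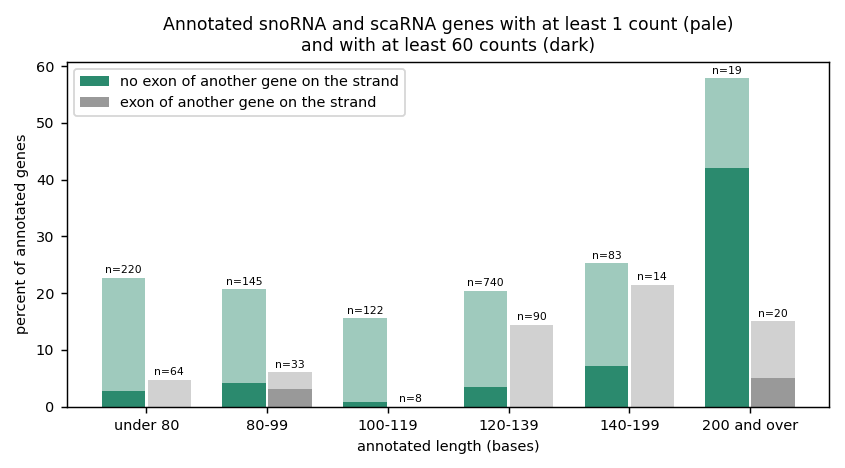
Percent of annotated snoRNA and scaRNA genes with at least 1 count (pale bars) and with a summed count of at least 60 (dark bars), by annotated length in bases, for genes with and without an exon of another gene on their strand. The n above each bar is the number of annotated genes, and the tallest dark bar is that of genes of 200 bases or more without such an exon, at 42.1%.

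By name, the set held 4 of 9 Scarna, 4 of 42 Snora, 4 of 98 Snord and 43 of 1409 genes with other symbols. The snoRNAs listed for processing of the ribosomal RNA precursor were nearly uncounted, apart from Snora73b. How reads that fit several gene copies were counted is not given in the sources used here, so a count of 0 does not show absence of the RNA. The copies of U3 (Rnu3) held 0 or 3 counts, Snord14 and Snord22 were listed at 0, and Snord118 (U8) held 3, Snora73a 6 and Snord13 16 counts over all 6 libraries, so that Snora73b (U17) was the single member of that list with enough counts. Just inside the limit were Gm24091 with 65, Gm22661 with 62 and Gm24920 with 60 counts, and just outside it Gm22532 and Gm23908 with 58 each and Snora23 with 57. Gm24091 and Gm25632 each have another annotated gene of identical sequence, and near copies may also share reads.

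The libraries held 41400132 to 54226618 counts, of which the 55 genes took 0.00775 to 0.0135%. Both libraries numbered 3 stood apart from the rest. Their share of counts on titin was 4.48% (AAV-GFP) and 9.05% (AAV-RBM20), beside 16.9 to 17.8% in the other 4, and their mitochondrial share was 12.5% and 11.4%, beside 6.41 to 7.66%. All 10 muscle fibre markers were present, and their summed CPM, counts scaled to a common library size, ran from 144663 to 298063 in AAV-GFP and from 140558 to 276793 in AAV-RBM20. The markers of macrophages summed to 31.9 to 116 CPM in AAV-GFP and 73.6 to 171 CPM in AAV-RBM20, with 10 of 10 present and higher in AAV-RBM20 by point estimate, and those of fibroblasts to 638 to 1332 and 1061 to 1429 CPM. No listed marker of these types was at 0. In whole muscle, fewer cells of a type and less RNA per cell cannot be told apart.

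Rbm20 itself, the gene carried by the vector, was at 170, 165 and 164 CPM in AAV-GFP and at 499, 545 and 406 CPM in AAV-RBM20. The groups did not overlap and the log2 fold change was 1.54 ± 0.15 (SE, n = 3 per group). It had the smallest p of all 17222 genes tested with edgeR (7.04e-06), but its adjusted p was 0.121 (0.0107 when the replicate number was a block). Hence the test without the replicate number called no gene (0% of genes tested).

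A few scaRNA genes carried most of the counts. The 10 scaRNA genes held 66.8% of all counts of the 55 genes, and the 4 Scarna symbols alone 35.5%. Levels between genes are compared as the mean CPM of the 6 libraries per kb of annotated length. The scaRNA genes were longer (median 215 bases) than the snoRNA genes (131), and this measure does not correct for unequal recovery of short RNA. The order below is therefore one of reads and not of RNA abundance in the muscle. Scarna2, an RNA that guides modification of the U2 spliceosomal RNA and has no host gene in the annotation, was highest at 62.8 CPM per kb. Gm22009, in an intron of Kpna4, followed at 43.5, Snora73b at 35.8, Gm25395 at 31.8 and Gm22442 at 20.4 CPM per kb. Scarna6 was at 17.2, Scarna13 at 9.25 and Scarna9, which GENCODE classes as a snoRNA, at 7.71 CPM per kb. Of the C/D genes named Snord, Snord17 led at 11.9, ahead of Snord71 at 6.74, Snord104 at 5.10 and Snord8 at 2.39 CPM per kb. Of the H/ACA genes named Snora, Snora73b was followed at a distance by Snora30 at 6.54, Snora31 at 4.16 and Snora17 at 2.45 CPM per kb. The plot of levels shows the spread over libraries for each gene. Neighbours in this order mostly overlapped from library to library, and the 4 lowest genes (Gm22661, Gm22334, Gm24620 and Gm22516) held 62 to 76 counts over the 6 libraries.

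**Figure D2:**
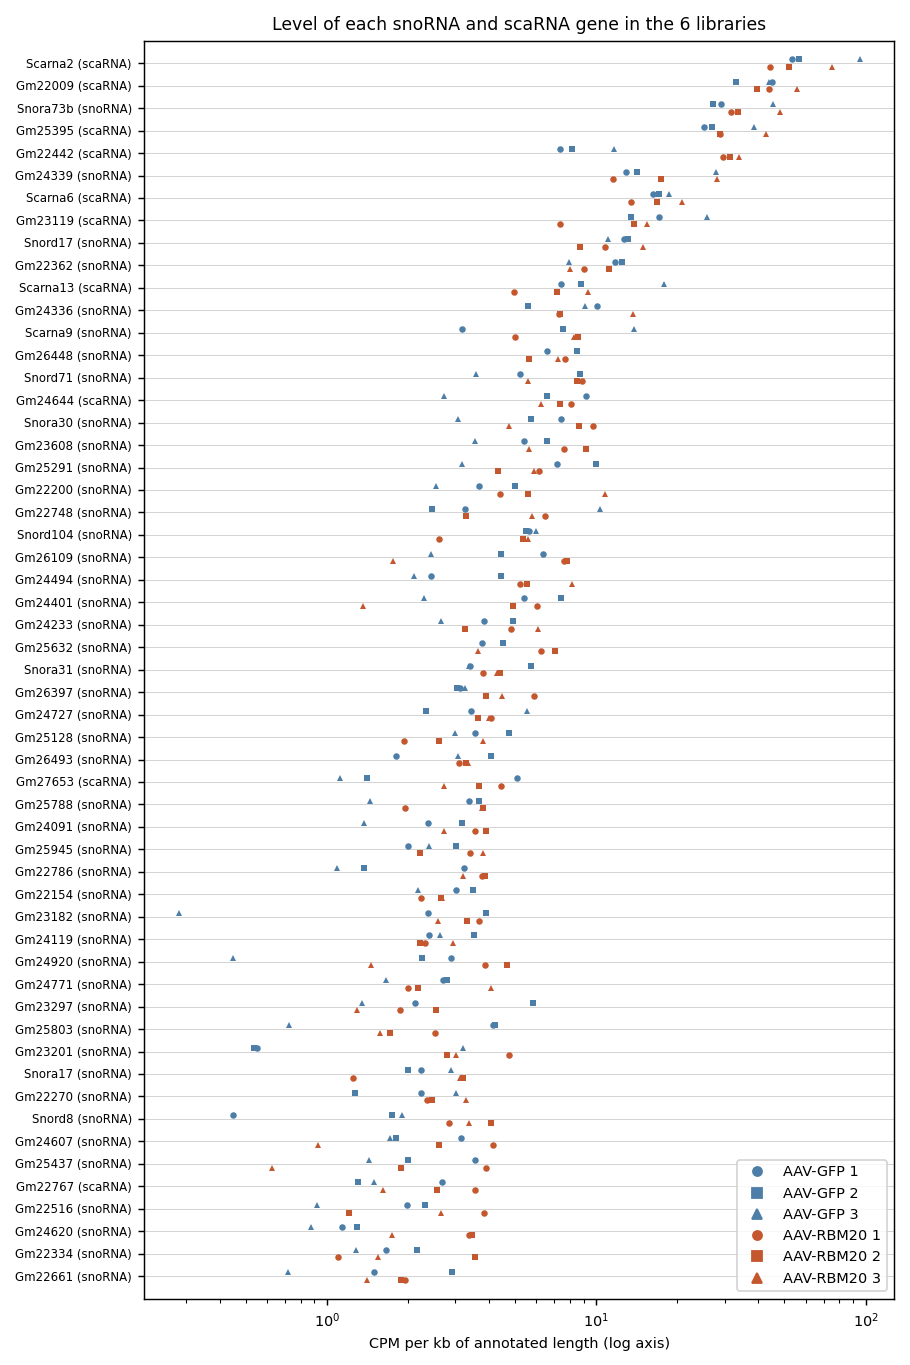
Level of the 55 genes in each library as CPM per kb of annotated length on a log axis, ordered by the mean. Blue is AAV-GFP, orange is AAV-RBM20 and the shape gives the replicate number. The 1 value with a count of 0 (Gm25632, AAV-GFP 3) is not drawn. All orange points lie to the right of all blue points in 5 genes, of which Gm22442 has the highest level.

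Set beside their hosts, the genes formed a wide range. Of the 55, 50 lie in a host gene by annotation (48 protein-coding, 46 different hosts) and 5 do not (Scarna2, Gm23119, Snord104, Snora17 and Gm25437). The level per kb of the gene divided by that of the host's merged exons was above 1 for 13 genes and below 1 for 37. Those above 1 included Snora73b at 19.4, Gm24339 at 14.8, Gm22442 at 13.7, Gm25395 at 12.1, Scarna13 at 10.4, Scarna6 at 6.47 and Scarna9 at 6.16 times the host's exon level. Snora30 stood at 101 times Gm42715, its host by annotation, but that host was near the floor at 0.34 to 1.43 CPM. The ratio of Scarna13 also rests on a low host, Snhg10, with 15 to 32 counts per library. Those below 1 had a median of 0.262 and reached down to 0.0161 for Snora31, which lies in the highly expressed Tpt1. Gm26448, the relative of Snora73b in the ribosomal protein gene Rpsa, was at 0.114 of its host.

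Of the 4 hosts that held a pair of these genes, the pair differed in level in Atg16l1 and Cep295 and was close in Pabpc4, with Gm25788 at 3.00 and Gm22154 at 2.70 CPM per kb, and in Hspa9, with Gm22200 at 5.32 and Gm26109 at 5.07 CPM per kb. In Atg16l1, Gm25395 had 277, 305 and 553 counts in AAV-GFP, against 426, 314 and 562 in AAV-RBM20, whereas Scarna6 had 175, 189 and 259, and 194, 179 and 268. The ratio of their CPM was 1.78 ± 0.31 (SD, n = 3) in AAV-GFP and 2.02 ± 0.23 (n = 3) in AAV-RBM20, which did not differ beyond the replicate spread (two-sided exact permutation test, p = 0.3). Gm24339 exceeded Scarna9, its neighbour in Cep295, by 2.89 ± 1.35 times in AAV-GFP and 2.82 ± 0.79 times in AAV-RBM20 (exact permutation p = 0.9).

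The libraries numbered 3 also divided the set, by class, by level relative to the host and by length. For each gene, the log2 CPM of the library numbered 3 was compared with the mean of the other libraries of its group, and the differences of both groups were averaged. Over all 55 genes the median was 0.01, beside 0.02 for all genes tested. It was 0.33 for the 10 scaRNA genes, of which 7 were higher, and -0.14 for the 45 snoRNA genes, of which 20 were higher. All 4 Scarna genes were higher, and so were 9 of the 10 genes with C and D letters, with a median of 0.31, beside 10 of the 24 with H and ACA letters, with a median of -0.08.

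Scarna2 gives the clearest case, at 22.2, 23.4 and 39.6 CPM in AAV-GFP, against 18.3, 21.6 and 31.0 CPM in AAV-RBM20. In both groups the third library was the highest. Gm24339 showed the same order, at 0.98, 1.08 and 2.11 CPM in AAV-GFP and 0.88, 1.32 and 2.14 CPM in AAV-RBM20. Of the 13 genes above their host's exon level, 9 were higher in the libraries numbered 3 of both groups and the median difference was 0.55, whereas of the 37 below it 5 were higher in both, 17 were lower in both and the median was -0.30. Of the 5 without a host, 4 were higher in both. The difference also went with annotated length (Pearson's r 0.35, Spearman's rho 0.32 over the 55 genes). Genes above their host's exon level were longer than those below it (medians 144 and 131 bases) and at a higher level (9.25 and 3.07 CPM per kb). Which of these the difference followed was not tested. The largest rises were those of Gm24339 (0.95) and Gm22748 (0.95), the latter mostly from AAV-GFP (1.63, beside 0.27 in AAV-RBM20). The largest falls were those of Gm25632 (-1.43) and Gm24401 (-1.27). Gm25632 had counts of 13, 16 and 0 in AAV-GFP, against 29, 24 and 15 in AAV-RBM20. Gm24339 and Gm25632 went with the division by host level, whereas Gm22748 lay below its host's exon level (0.336) and Gm24401 above it (5.13). The other short RNAs of the table with at least 60 counts moved like the genes below their host's exon level, with medians of -0.45 for snRNA, -0.44 for miRNA and -0.58 for misc_RNA genes. These are 2 libraries, 1 in each group, so the split is a description and was not tested, nor was the part of the titin and mitochondrial shares in it.

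**Figure D3:**
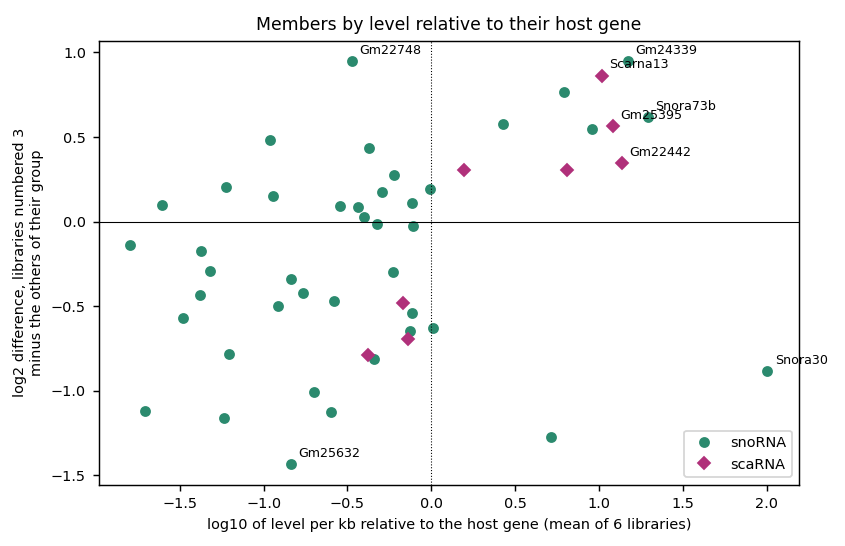
Each point is 1 of the 50 genes with a host. The horizontal axis is log10 of the level per kb relative to the host's exons, and the vertical axis the log2 difference of the libraries numbered 3 from the others of their group, averaged over both groups. The horizontal values are means over all libraries, those numbered 3 included, so the axes share data. To the right of the dotted line (level equal to the host's) 10 of 13 points lie above 0, and to its left 13 of 37.

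Summed over all 55 genes, the level did not differ between the groups beyond the spread of the libraries. The CPM of the 55 genes summed to 85.5, 84.8 and 111 in AAV-GFP and to 85.6, 89.4 and 115 in AAV-RBM20, or 93.9 ± 15.2 and 96.6 ± 15.8 (SD, n = 3), a log2 ratio of 0.04 (0.05 without both libraries numbered 3). Without Scarna2, the gene of the highest level, the log2 ratio was 0.15. The scaRNA genes summed to 63.7 ± 15.1 and 63.2 ± 13.2 CPM. The snoRNA genes summed to 29.0, 31.4 and 30.3 CPM in AAV-GFP and to 32.0, 31.6 and 36.4 CPM in AAV-RBM20. These sums (30.2 ± 1.21 and 33.3 ± 2.67 CPM) did not overlap, by a narrow margin, and were not tested. No gene of the set passed an adjusted p of 0.05 with edgeR among the 54 tested (0% of all genes did so). Gm24920 had too few counts to be tested.

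At an unadjusted p under 0.05 with edgeR, 4 of the 54 (7.41%) were higher in AAV-RBM20, beside 4.08% of all genes, and 0 were lower, beside 3.82%. With the replicate block the same threshold held 4 higher, beside 8.92% of all genes, and 2 lower, beside 9.92%. In 5 genes every AAV-RBM20 library lay above every AAV-GFP library (9.09% of the set, beside 7.71% of all genes), and in 0 below (9.04%). Gm24620 and Snord8, which are 2 of these 5 and of the 4 above, passed the low-count filter through the AAV-RBM20 libraries alone. They had to differ to be tested, so neither share can be read as an excess. The median log2 fold change was 0.18 over the 54 genes and 0.01 over all 17222, with 36 genes (66.7%) above 0 beside 51.3% of all genes. The median was 0.04 over the genes of the set with a summed count of at least 120, so the positive median lay with the genes of lower count, and it was 0.15 without both libraries numbered 3. The other short RNAs of the table had medians of 0.33 (snRNA, 44 tested), 0.37 (miRNA, 85) and 0.34 (misc_RNA, 34), and the 46 host genes of -0.09. By class the median was 0.17 for scaRNA and 0.18 for snoRNA genes, 0.09 for genes with C and D letters, 0.14 for those with H and ACA letters and 0.24 for those with neither. No class held more than 3 genes with p under 0.05, and differences between classes were not tested.

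**Figure D4:**
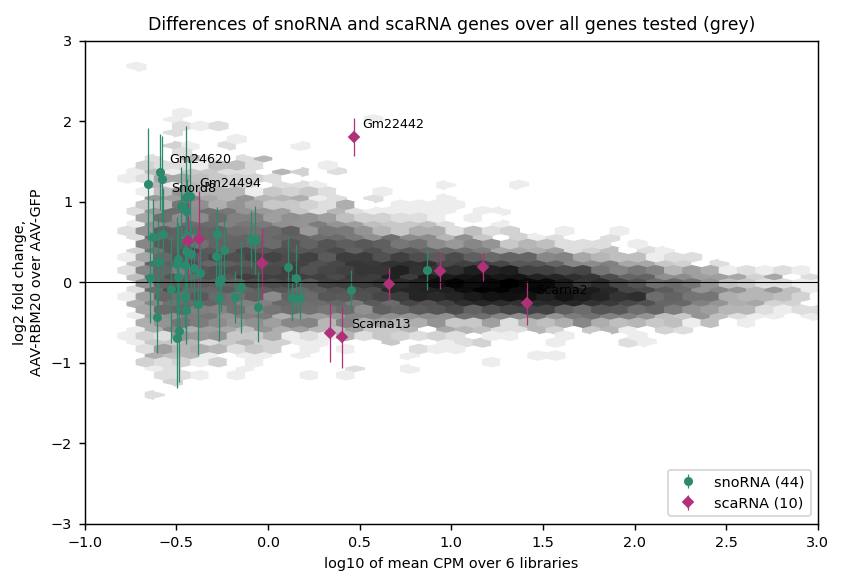
Log2 fold change of AAV-RBM20 over AAV-GFP against log10 of the mean CPM for the 54 genes tested (green circles snoRNA, purple diamonds scaRNA, bars SE), over the 17222 genes tested (grey, darker where more genes lie). Most of the set lies at low level with wide bars, and Gm22442, at 1.80, is the highest of the set.

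Gm22442 was the exception. It is a scaRNA gene (ENSMUSG00000087881) of 144 bases with H and ACA letters in an intron of Chd3, which encodes a chromatin remodeller of the NuRD complex. Its reads numbered 43, 49 and 88 in AAV-GFP, against 233, 182 and 237 in AAV-RBM20, or 1.06, 1.17 and 1.67 CPM beside 4.27, 4.53 and 4.88 CPM. All 3 AAV-RBM20 libraries lay above all 3 AAV-GFP libraries, and the gap between the groups exceeded the spread within either.

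The means were 1.30 ± 0.33 and 4.56 ± 0.31 CPM (SD, n = 3 each), a fold of 3.50 and a log2 fold change of 1.80 ± 0.24 (SE). Its p was the fourth smallest of all genes tested with edgeR (6.21e-05), with an adjusted p of 0.267. With the replicate number as a block, a pairing that the data cannot establish, the log2 fold change was 1.82 and the edgeR adjusted p 0.0271. Under that block Gm22442 was the 1 gene of the set that was called, beside 0.145% of all genes. DESeq2 without the block called it too (adjusted p 2.88e-08, beside 0.435% of all genes), limma-voom did not. It was also called by edgeR with no low-count filter (adjusted p 0.0143, beside 0.0269% of all genes) by DESeq2 with the block (2.18e-07, beside 2.98%), and by edgeR with the block and a length trend removed (0.0362, beside 0.547%). Without both libraries numbered 3 edgeR gave 1.98 with an adjusted p of 0.000978, beside 4% of all genes called. The two-sided exact permutation test gave 0.1, the smallest p that 3 against 3 libraries allow. With each library left out in turn the log2 fold change stayed between 1.67 and 2.03, with edgeR adjusted p from 0.0512 to 0.988.

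The host had a smaller point estimate. Chd3 was at 9.74, 12.58 and 9.88 CPM in AAV-GFP, against 13.71, 12.64 and 13.34 CPM in AAV-RBM20, so its groups did not overlap either, by a narrow margin, with means of 10.7 ± 1.60 and 13.2 ± 0.55 CPM (SD, n = 3), a log2 fold change of 0.30 ± 0.14 (SE) with an edgeR adjusted p of 0.641 (0.252 with the replicate block). The ratio of Gm22442 to Chd3 in CPM was 0.109, 0.0933 and 0.169 in AAV-GFP, against 0.311, 0.358 and 0.366 in AAV-RBM20, with no overlap, and its mean was 2.79-fold higher (exact permutation p = 0.1, the smallest possible). Per kb, Gm22442 stood at 7.25 times the exon level of Chd3 in AAV-GFP and 20.2 times in AAV-RBM20.

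The relative Gm24644, with which Gm22442 shares its H box letters AGAGTA and the end of the transcript, had overlapping groups. It counted 52, 38 and 20 in AAV-GFP, against 61, 41 and 42 in AAV-RBM20, with a log2 fold change of 0.24 ± 0.44 (SE, edgeR adjusted p 0.884). The ratio of Gm22442 to Gm24644 was 0.827, 1.29 and 4.4 in AAV-GFP, against 3.82, 4.44 and 5.64 in AAV-RBM20, which overlapped (exact permutation p = 0.2). The more abundant scaRNA gene Gm22009 was at 13.9 ± 2.24 and 15.9 ± 2.86 CPM (SD, n = 3). Across the 6 libraries the genes of the set whose log2 CPM varied most like that of Gm22442 were Snord8 (Pearson r = 0.86), Gm26397 (0.82) and Gm23201 (0.82). Snord8 and Gm26397 are, like Gm22442, among the genes whose groups did not overlap, so these values in part restate the difference between the groups. Gm23201 had only 2, 2 and 15 counts in AAV-GFP. With 6 libraries in 2 groups, such values describe these libraries and carry no p. The markers of macrophages and fibroblasts were also higher in the AAV-RBM20 libraries 1 and 2 than in the AAV-GFP libraries 1 and 2, and their part in the difference was not tested.

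**Figure D5:**
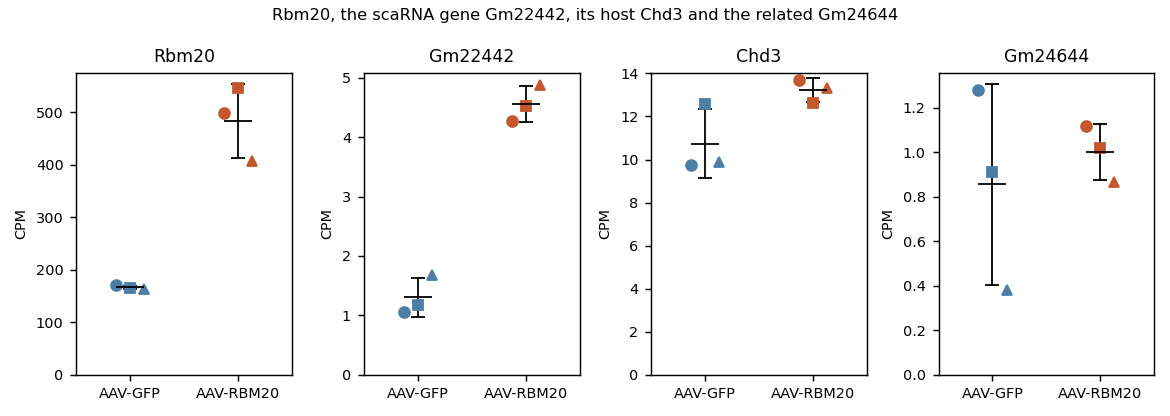
CPM of Rbm20, Gm22442, its host Chd3 and the related scaRNA gene Gm24644 in each library (circle, square and triangle are replicates 1, 2 and 3), with the mean and SD (n = 3) as a bar. All axes start at 0. Gm22442 lies at 1.06 to 1.67 CPM in AAV-GFP and 4.27 to 4.88 CPM in AAV-RBM20. Chd3 has means of 10.7 and 13.2 CPM without overlap, and the groups of Gm24644 overlap.

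The other genes with p under 0.05 rested on few counts. Gm24620 had 6, 7 and 6 counts in AAV-GFP, against 24, 18 and 11 in AAV-RBM20, with a log2 fold change of 1.37 ± 0.47 (SE). Its near copies in Pabpc4 were at 0.17 ± 0.49 for Gm25788 and -0.19 ± 0.38 for Gm22154, and its own host Kif13a was at -0.02 ± 0.15. Snord8 had 2, 8 and 11 counts in AAV-GFP, against 17, 18 and 18 in AAV-RBM20, a log2 fold change of 1.28 ± 0.54, while its host Chd8, a chromatin remodeller of the same family as Chd3, was at 0.02 ± 0.17. Gm24494, in an intron of Rabggtb, had 8, 15 and 9 counts in AAV-GFP, against 23, 18 and 32 in AAV-RBM20, a log2 fold change of 1.07 ± 0.44 (0.64 without both libraries numbered 3), beside -0.30 ± 0.19 for Rabggtb. All 3 had an edgeR adjusted p of 0.618. Gm24620 and Snord8 passed the filter on low counts through the AAV-RBM20 libraries alone and so had to differ to be tested. Gm26397, in Tomm20, was the fifth gene without overlap, with 17, 17 and 23 counts beside 43, 21 and 29 and a log2 fold change of 0.60 ± 0.34.

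No gene of the set was lower with p under 0.05 in the test without the block. With the block, Scarna13 (log2 fold change -0.62, p = 0.0216) and Scarna2 (-0.25, p = 0.0311) were below it with edgeR, each lower in all 3 same-numbered pairs (no exact test of 3 pairs can reach that threshold), and their adjusted p were 0.201 and 0.229. By counts, Scarna13 had 83, 101 and 259 counts in AAV-GFP, against 74, 79 and 124 in AAV-RBM20, with a log2 fold change of -0.68 ± 0.39 (SE). Gm23119, a scaRNA gene without a host, had 97, 79 and 190 counts beside 56, 78 and 105, and -0.63 ± 0.36. Without AAV-GFP replicate 3 these log2 fold changes were -0.19 for Scarna13 and -0.33 for Gm23119, and without AAV-RBM20 replicate 1 that of Gm23119 was -0.35. Scarna2 had 901, 977 and 2083 counts beside 1001, 868 and 1505, and -0.26 ± 0.27, and without AAV-GFP replicate 3 this became 0.05. In each of the 3 the AAV-GFP library numbered 3 held the highest count and the groups overlapped. Scarna6 was at -0.03 ± 0.20, Scarna9 at -0.20 ± 0.54, Snora73b at 0.16 ± 0.25, Gm25395 at 0.14 ± 0.23 and Snord17 at -0.09 ± 0.25.

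Across hosts, the log2 fold changes of a gene and of its host went little together. Over 49 genes with both values Pearson's r was 0.18 and Spearman's rho 0.20, and 24 of the 49 had the same sign as their host. Gene and host can share intronic reads, and the points are genes, so these are descriptions without a p.

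Genes for the proteins that make and carry snoRNAs, and snoRNA host transcripts, were not called in the edgeR test without the block either. Of 78 tested genes of these lists, which held core box proteins, assembly factors, Cajal body and trafficking factors, release and trimming enzymes, nucleolar and ribosomal RNA synthesis factors and snoRNA host transcripts, 0 passed the adjusted p with edgeR, with or without the replicate block. By point estimate 15 were higher and 63 lower, whereas 51.3% of all genes were higher. The median log2 fold change was -0.20 beside 0.01 for all genes. At an unadjusted p under 0.05, 0 were higher (4.08% of all genes) and 3 lower (3.82%). DESeq2 called 0 without the block and 2 with it, Nhp2 and Rian, beside 2.98% of all genes. Fbl, the methyltransferase fibrillarin, was at 8.00 ± 0.92 and 7.81 ± 0.37 CPM (SD, n = 3). Dkc1, the pseudouridine synthase dyskerin, was at 20.3 ± 5.93 and 16.0 ± 2.31 CPM, a log2 fold change of -0.34 ± 0.21 (SE) that was -0.07 without AAV-GFP replicate 3. Coil, the Cajal body scaffold coilin, was at -0.36 ± 0.19 and Wrap53, which brings scaRNAs to Cajal bodies, at -0.20 ± 0.16 (-0.11 without AAV-RBM20 replicate 3).

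The 3 with p under 0.05 were Rian, Nhp2 and Nop2. Rian, an imprinted transcript that hosts many C/D snoRNAs, was at 22.6, 27.3 and 21.4 CPM in AAV-GFP and 15.7, 17.1 and 13.4 CPM in AAV-RBM20, without overlap. Rian's log2 fold change was -0.63 ± 0.15 (SE, edgeR adjusted p 0.617, and 0.0663 with the replicate block). Nhp2, a core H/ACA protein, was at 8.78, 9.03 and 13.8 CPM beside 6.32, 6.47 and 7.54 CPM, with a log2 fold change of -0.64 ± 0.20 (adjusted p 0.618 by edgeR, 0.107 with the block), and of -0.40 without AAV-GFP replicate 3. Nop2, a methyltransferase of ribosomal RNA, was at -0.31 ± 0.12. By list, the median was -0.17 for the 4 C/D core proteins, -0.30 for the 4 H/ACA core proteins, -0.16 for the 9 assembly factors, -0.19 for the 11 Cajal body and trafficking factors, -0.18 for the 22 nucleolar factors and -0.36 for the 18 host transcripts. The 10 release and trimming enzymes had 5 higher and 5 lower, with a median of -0.08.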

How the data were processed

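RNA of 6 TA muscles was isolated with TRIzol and an RNeasy Mini Kit and sequenced after ribosomal RNA depletion with a stranded kit. How well short RNA was recovered in these steps was not measured. The authors mapped reads to mm10 with HISAT2 and deposited raw counts per Ensembl gene from HTSeq. Their second deposited table holds a signal, the counts divided by 1 DESeq2 size factor per library (0.8805 to 1.208), and was only checked. The strand setting, annotation release and versions are not given in the sources used here. Symbols, biotypes, hosts, positions (GRCm38) and sequences came from GENCODE M21, in which 55141 of 55401 identifiers were found.

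Groups were taken from the labels, and replicate numbers from the titles, which number both groups 1 to 3; the sample descriptions and table columns number AAV-RBM20 4 to 6 instead. The labels do not say whether same-numbered muscles share a mouse or which libraries are separate mice, so p-values measure the spread between these samples. A supplement of the study lists left and right muscles of the same mouse in both groups for its protein blots, and does not tie them to these libraries. Same-numbered libraries deviated together from their group means (r = 0.418, 0.201 and 0.484). By the rule that every pair exceeds 0.1 the numbers were taken to pair them. With replicates 1 and 2 swapped the rule holds too (AAV-GFP 1 with AAV-RBM20 2 at 0.131, AAV-GFP 2 with AAV-RBM20 1 at 0.216). It therefore cannot tell which libraries pair. The block rests on this hint from the data, which does not establish a pairing. AAV-RBM20 was tested against AAV-GFP in edgeR 4.0.16 (quasi-likelihood test, R 4.3.3) after filterByExpr and TMM, without the block, with Benjamini-Hochberg adjustment over 17222 genes and a threshold of 0.05. Alternatives used DESeq2 1.42.0, limma 3.58.1, other scalings and filters, removal of a length trend, and left-out libraries. CPM used TMM-scaled library sizes, and 0.1 was added before logs in the comparison of libraries numbered 3. The code was tested on simulated data.

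The genes and lists were chosen with earlier results of these data known. Named genes were the Scarna genes, the 4 of highest level per kb in each symbol class, those with the smallest p under 0.05 in each direction, those called with the block, the extremes of libraries numbered 3, those next to the limit of 60 counts, hosts, Rbm20, Fbl, Dkc1, Coil, Wrap53 and any called pathway gene. Gm24644, Gm26448, Gm25788, Gm22154, Gm26397, Gm23201, Gm23119, Gm25437, Gm22334, Gm22516, Gm22200, Gm26109, Rian, Nhp2 and Nop2 were named after their values were seen.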

Additional observations from a re-analysis of the deposited data

How the results depend on the processing

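The count of called genes of the set was 0 in the test as reported and 1, in each case Gm22442, with no low-count filter, with DESeq2, with the replicate block, with the length trend removed and the block together, without both libraries numbered 3, and with DESeq2 and the block together. In the other 15 of 21 alternatives it was 0, and without 1 library at a time 0 in each. The median log2 fold change of the set (0.18) was 0.0421 with a filter of 1 CPM in 3 libraries, 0.0449 with the length trend removed, 0.0133 with length and block together and 0.0426 for summed counts of at least 120, and ranged from 0.1132 to 0.2611 with 1 library left out. The log2 ratio of the summed level (0.04) ranged from -0.0923 to 0.1792 in the same way. The pathway lists had 1 called gene, Rian, with length and block together and without both libraries numbered 3, and 2, Nhp2 and Rian, with DESeq2 and the block. The replicate block alone changed no other call among the genes named with a fold change than those of Gm22442 and Rbm20. Of 320 values of single genes under alternatives, 298 kept their direction and side of the threshold, 16 passed it and 6 changed sign. With 1 library left out, Scarna2 ranged from -0.4992 to 0.0509, Gm24644 from -0.1293 to 0.6425 and Fbl from -0.0913 to 0.0634. Scarna13 ranged from -0.9146 to -0.1927, Gm23119 from -0.8279 to -0.3306, Dkc1 from -0.4634 to -0.0744 and Nhp2 from -0.7557 to -0.3965, each smallest in size without AAV-GFP replicate 3. Without that library, Scarna2 became 0.0509, Gm24644 -0.1293 and Fbl 0.0634, and without both libraries numbered 3 Gm24644 became -0.0226 and Fbl 0.0434, with Fbl at 0.0118 under upper quartile scaling. The causes were not tested. Leaving out both libraries numbered 3 and DESeq2 with the block were added after seeing the data. The genes of the set held a median of 113 counts over 6 libraries, and the SE of their log2 fold changes had a median of 0.44, which limits what could be detected.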
